A study of Homo sapiens with 6 samples.

Results

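The genes described here encode HLA class I molecules and the machinery that loads them with peptide. They are 9 protein-coding genes chosen by name, HLA-B, HLA-C, HLA-E, HLA-F, B2M, TAP1, TAP2, TAPBP and NLRC5, out of 58735 genes in the tables. Expression was measured by RNA-seq in 6 libraries of MDA-MB-231, an established basal-type breast cancer cell line. The 3 libraries titled Vector carry the label DMSO, a solvent, and the 3 libraries titled CB, called CB1 here, carry the treatment label CB1, the cannabinoid receptor encoded by CNR1. The comparison asks how a line that overexpresses CB1 differs from its vector control. According to the study's methods the receptor was brought in with a lentivirus built from pCDH and the cells were selected with puromycin. Stable cells were kept as a pool of clones, by the same account, and whether replicates were separate cultures is not given. The p-values therefore measure the spread between these libraries, and an effect of CB1 cannot be told apart from a difference between 1 line and another or from the DMSO named for Vector alone.

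A class I molecule is a heavy chain, encoded by genes such as HLA-B and HLA-C, bound to the small invariant chain B2M and to a short peptide cut from proteins of the cell. TAP1 and TAP2 form the transporter that carries peptides into the endoplasmic reticulum, and TAPBP encodes tapasin, which holds the empty heavy chain at the transporter and edits the peptide it receives. The loaded complex travels to the surface, where cytotoxic T cells read the peptide and natural killer cells read the presence of the molecule. NLRC5 is the transactivator of class I genes. It acts with factors that sit on the conserved enhancer of their promoters, where sites for interferon regulatory factors and NF-kB also lie.

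As a check of the titles, CNR1 had 7, 6 and 4 counts in Vector and 6465, 7703 and 7353 counts in CB1. Library totals ran from 16957881 to 18833661 counts. CPM below are counts scaled to a common library size. The 8 markers of the basal line were all present and summed to 5306 to 5435 CPM in Vector and 6613 to 6937 CPM in CB1, with 4 of 8 called higher, among them KRT81 by 2.58 on the log2 scale, and 2 lower, EGFR and ANXA1. Of 8 luminal and receptor genes 5 were tested and 3 were higher, KRT8, KRT18 and GATA3, while ESR1, the oestrogen receptor, was at 0.208 CPM in Vector and 0.206 CPM in CB1. Summed, this list had 692.7 to 706.9 CPM in Vector and 886 to 1102 CPM in CB1. Markers of leukocytes, which express class I strongly, summed to 3.09 to 3.37 CPM over 10 genes in Vector and to 3.61 to 5.24 CPM in CB1. Of them MS4A1 had no count in any library and CD3E averaged under 0.04 CPM in both groups, while CD14, the 1 marker high enough to test, rose from 0.966 to 2.95 CPM. PTPRC, the pan-leukocyte marker, went the other way, with 0.974 to 1.43 CPM in Vector and 0.0547 to 0.339 CPM in CB1, as did ITGAM. Markers of embryonic kidney cells, the kind used to produce lentivirus, summed to 28.9 to 32.1 CPM in Vector and to 58.2 to 62.1 CPM in CB1. GATA2 made up most of that sum, NEFL, INA and NEFM rose 17.9-fold, 15.5-fold and 6.73-fold from under 1.1 CPM, and SOX2 fell by 0.81 on the log2 scale. The part of these marker lists in the results was not tested. In bulk RNA more cells of a type and more RNA per cell cannot be told apart. On the second principal component CB1 replicate 1 scored -23.2, far from the 11.6 and 16.0 of replicates 2 and 3.

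All members but 2 lie in the major histocompatibility complex (MHC) on chromosome 6, at these GENCODE 29 positions on GRCh38. HLA-F spans chr6:29722775-29738528, HLA-E spans chr6:30489467-30494205, HLA-C spans chr6:31268749-31272130 and HLA-B spans chr6:31269491-31357188. Further along the same chromosome TAP2 spans chr6:32821833-32838780, TAP1 spans chr6:32845209-32853978 and TAPBP spans chr6:33299694-33314387. B2M lies at chr15:44711487-44718877 and NLRC5 at chr16:56989485-57083531. Values are sums over all annotated exons of a gene, coding and untranslated.

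The promoter stretches below are shown because class I heavy chains and B2M are known for a shared enhancer, and their RNA moved in opposite directions in these libraries. They come from RefSeq (GRCh38.p14), which gave a promoter for 7 of the 9 members. Each is written 5′ to 3′ on the strand of its gene. Capitals mark matches, on either strand, to 4 short motifs. They are AANNGAAA (core of sites for interferon regulatory factors), GGGNNTTNC (NF-kB type), TGACG (core of the site for CREB and ATF factors) and CCAAT (NF-Y type).
HLA-B, chr6:31357227-31357360, minus strand: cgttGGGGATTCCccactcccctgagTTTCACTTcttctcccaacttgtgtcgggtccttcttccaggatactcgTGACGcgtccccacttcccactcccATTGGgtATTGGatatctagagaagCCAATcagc
HLA-C, chr6:31272140-31272288, minus strand: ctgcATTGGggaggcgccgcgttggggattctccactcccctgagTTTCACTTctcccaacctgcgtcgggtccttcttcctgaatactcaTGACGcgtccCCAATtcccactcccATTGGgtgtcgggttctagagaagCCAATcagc
HLA-F, chr6:29723274-29723385, plus strand: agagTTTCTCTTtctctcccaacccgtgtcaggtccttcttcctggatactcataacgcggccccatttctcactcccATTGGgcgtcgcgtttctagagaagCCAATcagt
B2M, chr15:44711371-44711476, plus strand: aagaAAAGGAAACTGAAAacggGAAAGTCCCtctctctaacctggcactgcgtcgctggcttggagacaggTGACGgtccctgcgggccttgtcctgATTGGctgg
TAPBP, chr6:33314079-33314138, minus strand: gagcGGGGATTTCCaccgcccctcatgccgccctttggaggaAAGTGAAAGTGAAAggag

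In the 250 bases before the start, AANNGAAA was found for each of these 5 genes, for TAP2 and in 1 of the 2 TAP1 promoters, against 20.3% of 35116 promoters. TGACG occurred in HLA-B, HLA-C, B2M and TAP2 and in 21.2% of all promoters. CCAAT occurred in HLA-B, HLA-C, HLA-F, B2M and 1 TAP1 promoter and in 32.0% of all promoters. GGGNNTTNC occurred in HLA-B, B2M, TAPBP and 1 TAP1 promoter and in 14.2% of all promoters. Paired matches to AANNGAAA overlapped each other in B2M and in TAPBP, as did the pair to GGGNNTTNC in TAPBP. The matches are a description of letters and not of binding.

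In Vector, levels per length (FPKM, counts divided by gene length and library size) fell from the invariant chain to the transactivator. B2M was highest at 107.9 ± 5.24 FPKM (SD, n = 3), followed by HLA-E at 74.8 ± 0.527, HLA-B at 29.8 ± 2.14, TAPBP at 23.3 ± 1.21 and HLA-C at 14.95 ± 1.08. Below them lay TAP2 at 10.8 ± 0.352 FPKM, TAP1 at 8.03 ± 0.320, NLRC5 at 2.86 ± 0.0684 and HLA-F at 0.159 ± 0.0344. No neighbours in this order overlapped over the 3 Vector libraries. In CB1 the order began with HLA-E at 93.7 ± 6.82 FPKM and B2M at 83.7 ± 10.7 FPKM, whose ranges overlapped. In CPM, without division by length, B2M stayed above HLA-E, with means of 646.5 and 219.5 in Vector and 506.8 and 277.8 in CB1. HLA-B followed at 41.6 ± 7.97 FPKM, then TAPBP at 28.5 ± 0.789 and HLA-C at 24.1 ± 4.49, which also overlapped each other. TAP2 at 11.0 ± 0.928 FPKM, TAP1 at 7.65 ± 1.29, NLRC5 at 2.22 ± 0.199 and HLA-F at 0.567 ± 0.180 kept their places.

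**Figure D1:**
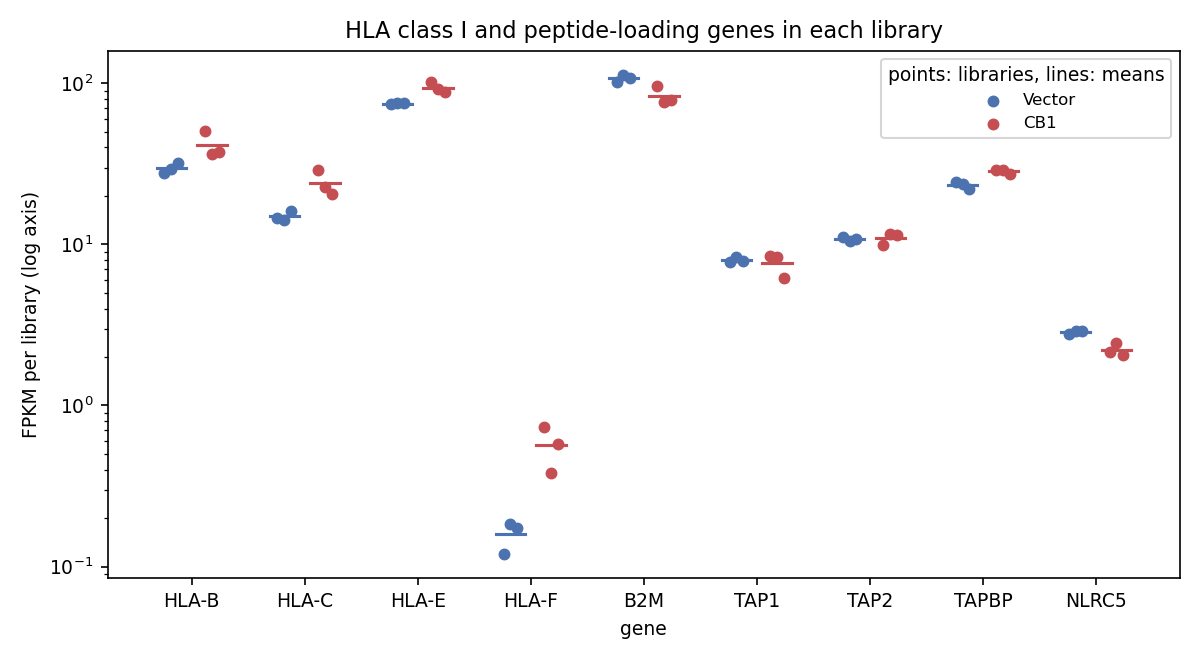
FPKM of the 9 members on a log axis, with 1 point per library, Vector in blue and CB1 in red, and a line at each group's mean (n = 3). HLA-B, HLA-C, HLA-E, HLA-F and TAPBP lie higher in all CB1 libraries than in all Vector libraries, B2M and NLRC5 lie lower, and the groups overlap for TAP1 and TAP2.

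The heavy chains HLA-B, HLA-C and HLA-E and the loading factor TAPBP were higher in CB1, by 1.23-fold to 1.63-fold, while B2M and NLRC5 were lower by about 1.28-fold. Both transporter genes missed the threshold. An edgeR quasi-likelihood test over 15289 genes, with Benjamini-Hochberg adjusted p under 0.05, thus called 4 of the 8 tested members higher and 2 lower. Over all genes tested, 49.8% were called, 24.4% higher and 25.4% lower. The median log2 change of the 8 members was 0.17, beside -0.002 over all genes. CPM of the groups did not overlap for 6 of the 8, beside 58.9% of all genes tested. None of the 8 changed by more than 2-fold, whereas 926 genes did and passed the test. The share of members called, 6 of 8, is thus read against a table in which a large part of all genes passed.

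HLA-B, a classical heavy chain that presents peptides to cytotoxic T cells, had 84.0, 88.2 and 96.3 CPM in Vector and 153.2, 110.7 and 115 CPM in CB1. All CB1 libraries lay above all Vector libraries, with CB1 replicate 1 highest. The log2 change was 0.50 ± 0.11 (SE; adjusted p = 0.00301, edgeR), which was 1.41-fold. Without CB1 replicate 1 the log2 change was the lowest of the leave-one-out values, 0.34, and it remained past the threshold.

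HLA-C, a classical heavy chain that is also the main ligand for inhibitory receptors of natural killer cells, had 36.2, 34.8 and 39.9 CPM in Vector. In CB1 it had 72.3, 56.3 and 52.0 CPM, again highest in CB1 replicate 1 and without overlap between the groups. Its log2 change of 0.70 ± 0.12 (SE; adjusted p = 0.000329, edgeR) was the largest among the 8 tested members. HLA-B and HLA-C share 35 exon bases on the same strand, 1.15% of HLA-B, and reads that match both heavy chains equally are not in counts of uniquely mapped reads. On the opposite strand 17.8% of the exon bases of HLA-B are shared with a pseudogene that had no count in any library.

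HLA-E, a heavy chain that displays leader peptides of other class I chains to the NKG2A receptor, had 218.6, 220.1 and 219.8 CPM in Vector and 298.3, 270.3 and 264.7 CPM in CB1. The Vector libraries lay within 2 CPM of each other, and every CB1 library was above them. The change was 0.34 ± 0.07 on the log2 scale (SE; adjusted p = 0.00146, edgeR), 1.27-fold.

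HLA-F, a heavy chain with limited expression in most tissues, was near the limit of detection in Vector. It had 9, 14 and 13 counts in Vector and 54, 30 and 45 counts in CB1, so that every CB1 library lay above every Vector library. Summed over the groups this was 36 against 129 counts, 3.57 times as many after correction for depth (exact 95% interval 2.45 to 5.32, counting error only). The gene lay under the minimum of 0.5 FPKM and entered a fit without a minimum, where the log2 change was 1.79 ± 0.33 (SE; adjusted p = 4.42e-07, edgeR). On the opposite strand 701 exon bases of HLA-F are shared with a pseudogene that had no count in any library. The antisense transcript HLA-F-AS1 shares 535 exon bases with HLA-F and ran the other way, from 31, 26 and 37 counts in Vector to 10, 17 and 22 counts in CB1. Whether counting used strand is not given, so reads of HLA-F and HLA-F-AS1 in the shared bases cannot be told apart.

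B2M, the invariant chain that every class I heavy chain binds, had 617.7, 676.3 and 645.7 CPM in Vector and 577.5, 461.3 and 481.6 CPM in CB1. Here CB1 replicate 1 was the closest to Vector. The change was -0.35 ± 0.09 on the log2 scale (SE; adjusted p = 0.00463, edgeR), 1.28-fold lower in CB1. No other gene shares exon bases with B2M.

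Ratios within a library do not depend on how libraries are scaled, but they do carry the GC trend described below, since B2M has a lower GC content than the heavy chains. HLA-B over B2M was 0.271, 0.260 and 0.297 in Vector and 0.529, 0.478 and 0.476 in CB1, a 1.79-fold difference of the FPKM ratio. HLA-C over B2M differed 2.07-fold, from 0.142, 0.125 and 0.150 in Vector to 0.304, 0.296 and 0.262 in CB1. HLA-E over B2M lay below 1 in Vector, at 0.723, 0.665 and 0.696, and above 1 in CB1, at 1.05, 1.20 and 1.12. The level of an FPKM ratio depends on the gene lengths used, 6079 bases for B2M and 2975 for HLA-E. The crossing of 1 therefore does not show that HLA-E RNA outnumbered B2M RNA. The groups did not overlap for any of these 3 ratios. HLA-C over HLA-B was also higher in CB1, 1.16-fold, without overlap. For each of these 4 ratios the exact two-sided permutation p was 0.1, the smallest that 3 against 3 libraries allow, and 0.15 after Benjamini-Hochberg adjustment over 6 ratios, so none could pass the threshold in this design. In terms of the fitted log2 changes, HLA-B minus B2M was 0.85 under TMM scaling and 0.26 with offsets for GC content and length, HLA-C minus B2M was 1.06 and 0.37, and HLA-E minus B2M was 0.69 and 0.18.

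**Figure D2:**
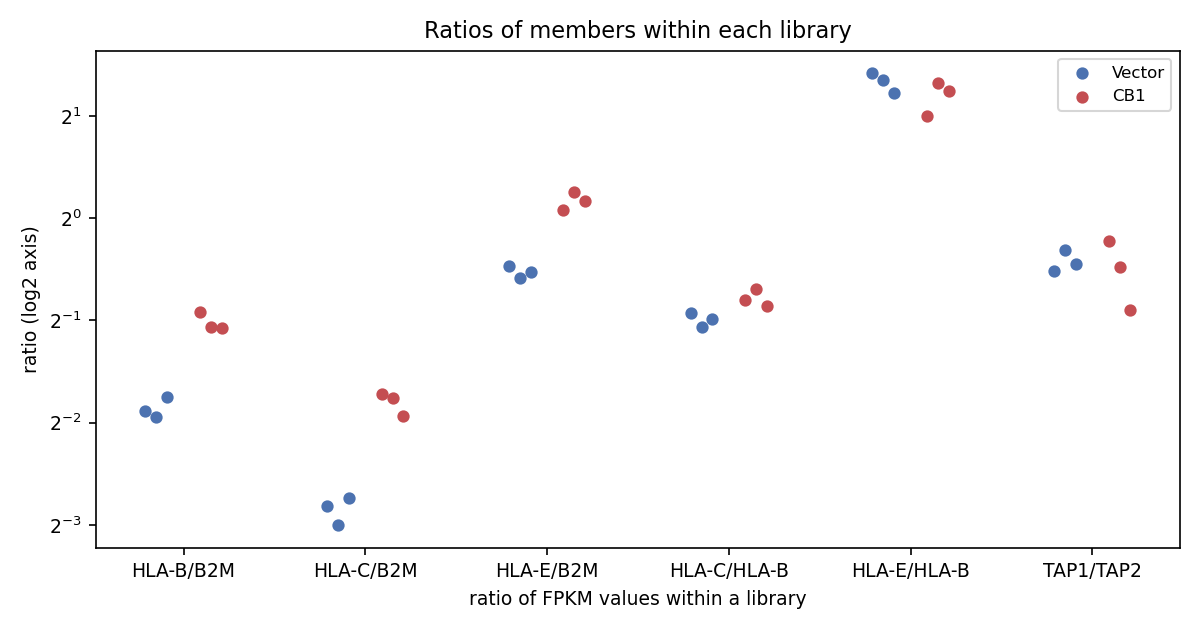
Ratio of the FPKM values of a pair of members within each library, on a log2 axis, with 1 point per library (3 Vector in blue, 3 CB1 in red). The heavy chains over B2M are higher in all CB1 libraries, 1.62-fold to 2.07-fold before any correction for GC content, and the groups overlap for HLA-E over HLA-B and for TAP1 over TAP2.

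TAP1 and TAP2, the subunits of the peptide transporter, did not pass the test. TAP1 had 37.1, 39.7 and 37.4 CPM in Vector and 40.3, 39.6 and 29.8 CPM in CB1, where CB1 replicate 3 alone lay below the Vector range. Its log2 change was -0.06 ± 0.11 (SE; adjusted p = 0.687, edgeR). TAP2 had 70.5, 65.6 and 67.8 CPM in Vector and 62.8, 73.5 and 73.8 CPM in CB1, with a log2 change of 0.04 ± 0.08 (SE; adjusted p = 0.686, edgeR). The ratio of TAP1 to TAP2 ran from 0.701 to 0.805 in Vector and from 0.538 to 0.853 in CB1 (exact permutation p = 0.8, adjusted p = 0.8, n = 3 per group). Its log2 difference of -0.11 turned to 0.070 without CB1 replicate 3. Of the exon bases of TAP2, 32.3% are shared with a readthrough gene on the same strand that had no count in any library. For TAP1, 9.49% are shared with PSMB8-AS1 on the opposite strand, which had 11 to 20 counts. How reads in shared bases were counted is not given. FPKM divides by the length of all annotated exons, so comparisons of FPKM between members depend on that annotation. For members with shared bases FPKM is uncertain for that reason as well.

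TAPBP, which encodes tapasin, had 122.1, 117.3 and 109.5 CPM in Vector and 145.2, 144.4 and 140.6 CPM in CB1. The groups did not overlap, and the CB1 libraries spanned less than 5 CPM. The log2 change was 0.30 ± 0.07 (SE; adjusted p = 0.00325, edgeR), 1.23-fold. The transporter and the factor that docks heavy chains to it thus had different calls, and a test of that difference was not run.

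NLRC5 had 34.1, 35.1 and 35.5 CPM in Vector and 26.3, 30.0 and 25.9 CPM in CB1. Every CB1 library lay below every Vector library. The transactivator's log2 change was -0.35 ± 0.09 (SE; adjusted p = 0.00487, edgeR), against the direction of the heavy chains HLA-B, HLA-C and HLA-E.

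The GC content of transcripts moved with the groups across the whole table and bears on these values. Over 15286 genes split into 5 equal bins by GC content, the median log2 change rose from -0.31 in bin 1, the lowest, to -0.16, 0.02, 0.19 and 0.30 in bins 2 to 5. Bin 5 minus bin 1, as deviation from the mean of all libraries, was -0.27 to -0.30 on the log2 scale in the 3 Vector libraries and 0.37, 0.35 and 0.14 in CB1. B2M, with 40.6% GC, is in bin 1. HLA-E with 54.8%, TAP1 with 57.5% and TAPBP with 57.7% are in bin 4, TAP2 with 49.1% is in bin 3, and HLA-B with 59.0%, HLA-C with 62.7% and NLRC5 with 58.1% are in bin 5. B2M and TAP2 thus lay within 1 SE of the median of their bin, HLA-B, HLA-C, HLA-E and TAPBP lay above theirs by more than 1 SE, and TAP1 and NLRC5 lay below.

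**Figure D3:**
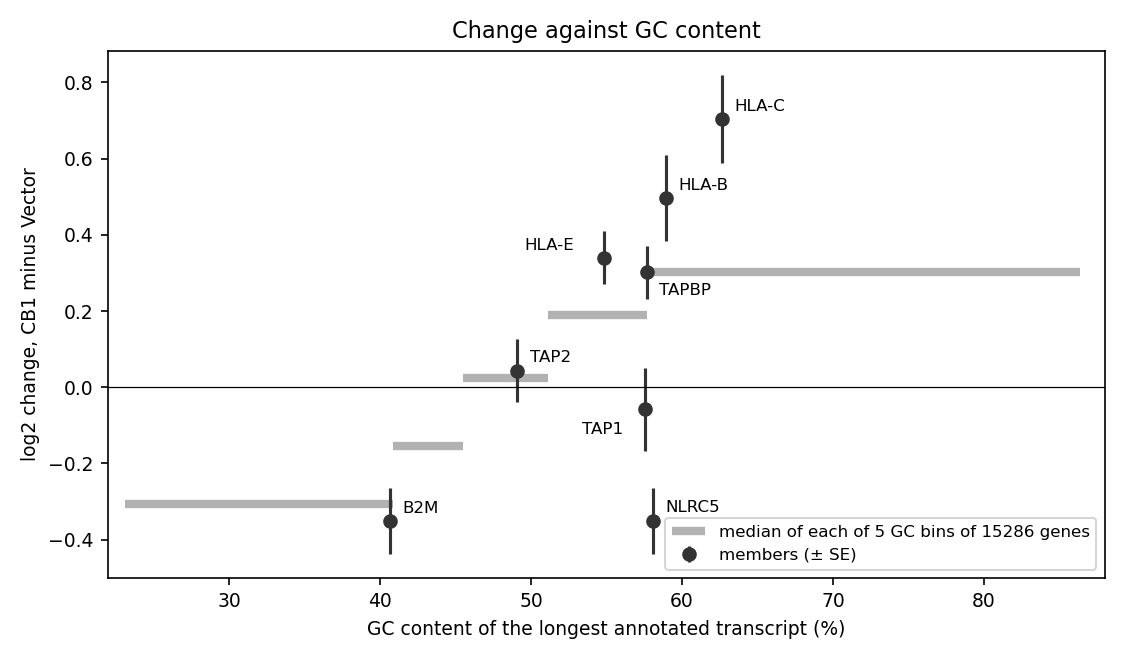
Log2 change (CB1 minus Vector) against the GC content of the longest annotated transcript in percent. Grey bars are medians of 5 bins of 15286 genes, each spanning its GC range, and rise from -0.31 to 0.30. Black points are the 8 tested members with their SE, of which HLA-B, HLA-C, HLA-E and TAPBP lie above the bar of their GC bin and TAP1 and NLRC5 lie below it.

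In an edgeR fit with offsets for GC content and length, chosen after the data were seen, 7049 genes were called. HLA-C remained higher, with a log2 change of 0.32 (adjusted p = 0.00484), and NLRC5 remained lower at -0.47 (adjusted p = 0.000269). HLA-B at 0.20 (adjusted p = 0.0657), HLA-E at 0.12 (adjusted p = 0.0569) and TAPBP at 0.10 (adjusted p = 0.167) no longer passed, nor did B2M at -0.06 (adjusted p = 0.635). TAP1, at -0.27 (adjusted p = 0.0285), passed as lower, and TAP2 stayed at 0.05 (adjusted p = 0.546). With offsets for GC content alone, HLA-B at 0.25 (adjusted p = 0.0845), TAPBP at 0.09 (adjusted p = 0.294) and B2M at -0.10 (adjusted p = 0.427) also lost their calls and TAP1 at -0.27 (adjusted p = 0.0424) again gained one, whereas HLA-E at 0.17 (adjusted p = 0.0443) kept its call. HLA-C at 0.39 (adjusted p = 0.00988) and NLRC5 at -0.57 (adjusted p = 0.000205) kept theirs as well. Neither fit held HLA-F, and what produced the trend was not tested.

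**Figure D4:**
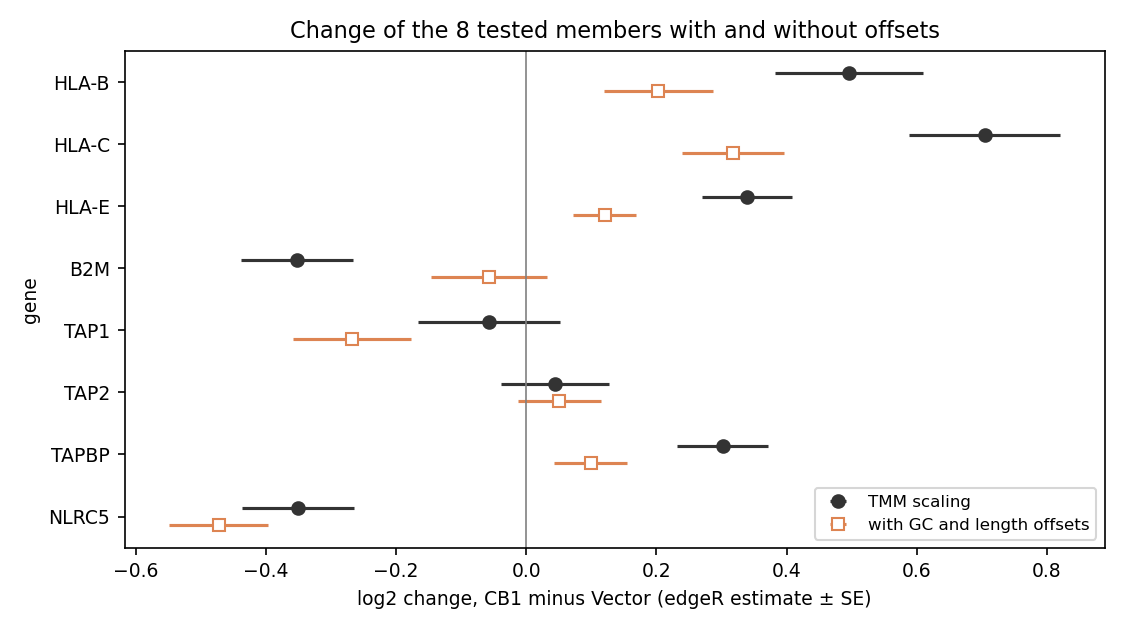
Log2 change (CB1 minus Vector, edgeR estimate with its SE) of the 8 tested members under TMM scaling (filled circles) and with GC and length offsets (open squares). HLA-C stays above 0 at 0.70 and 0.32, NLRC5 stays below at -0.35 and -0.47, and B2M moves from -0.35 to -0.06.

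Around the members, the MHC between HLA-F and TAPBP held 142 other protein-coding genes, of which 82 were tested. Of these, 30 were higher in CB1, 13 were lower and 39 were not called. The 43 calls among 82 stand beside 49.8% of all genes tested, 24.4% higher and 25.4% lower. Those shares also stand beside the counts of each list below, and no difference from them was tested. The list median was 0.12 on the log2 scale. The 5 with the smallest p were HLA-DRA, a class II chain, at 2.68 ± 0.23 (SE; adjusted p = 3.6e-06, edgeR), the collagen receptor DDR1 at -1.02 ± 0.09, ABCF1 at 0.69 ± 0.07, FLOT1 at 0.72 ± 0.08 and the valine tRNA ligase VARS at 0.59 ± 0.07. Genes higher and lower in CB1 were interleaved along the region.

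**Figure D5:**
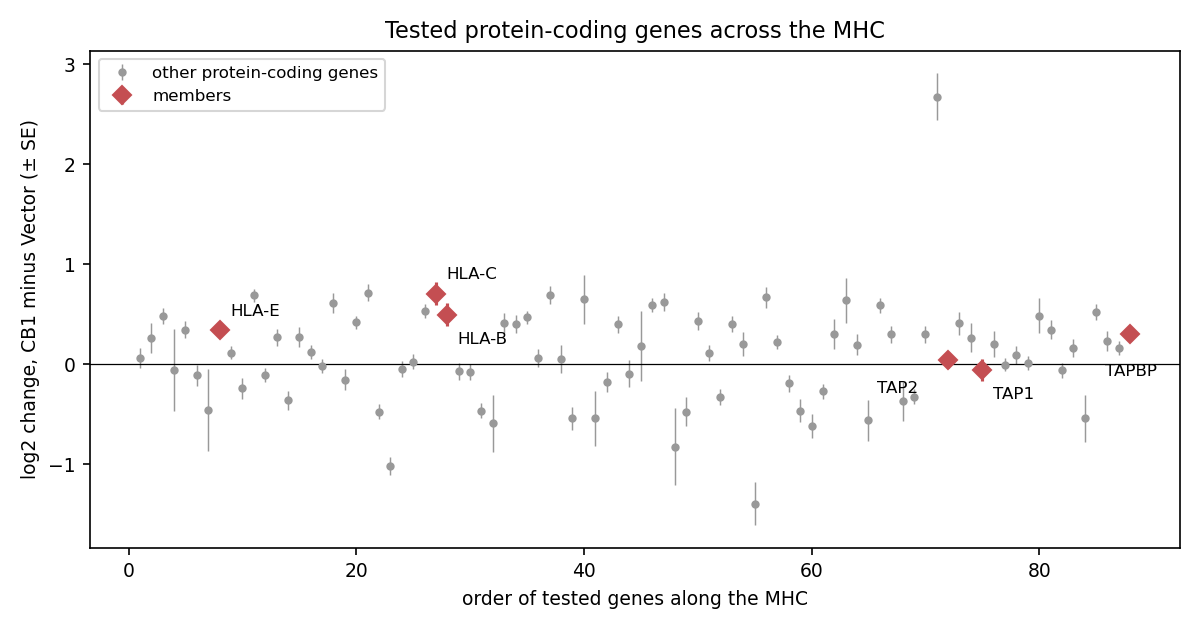
Log2 change (CB1 minus Vector) with SE of 88 tested protein-coding genes in their order along the MHC, members as red diamonds and other genes in grey. HLA-E, HLA-C, HLA-B and TAPBP lie above 0, TAP1 and TAP2 near 0, and the highest point is HLA-DRA at 2.68.

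Among 18 genes that cut or trim peptides before loading, 6 were higher in CB1, 5 were lower and 7 were not called. Their median change was 0.18 on the log2 scale. TPP2, a cytosolic peptidase, had 105.4 ± 7.60 CPM in Vector and 52.5 ± 7.68 CPM in CB1 (SD, n = 3) and fell, at -1.01 ± 0.10 on the log2 scale (adjusted p = 1.08e-05, edgeR). PSME3 and PSME1, subunits of proteasome activators, rose by 0.57 ± 0.07 and 0.56 ± 0.09 on the log2 scale, the peptidase THOP1 by 0.75 ± 0.09 and the immunoproteasome subunit PSMB10 by 0.59 ± 0.12. The aminopeptidases ERAP1 and ERAP2, which trim peptides in the endoplasmic reticulum, fell by 0.43 ± 0.09 and 0.54 ± 0.14. With the GC and length offsets 5 of the 18 genes were called, namely TPP2, PSME3, THOP1, PSME1 and NRDC, so that PSMB10 (adjusted p = 0.0875), ERAP1 (adjusted p = 0.338) and ERAP2 (adjusted p = 0.146) were not among them.

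Of 11 genes of class I folding and quality control, 2 were higher, none was lower and 9 were not called. Here the median was 0.08 on the log2 scale. BCAP31, an export receptor of the endoplasmic reticulum, rose from 127.3 ± 0.695 to 194.8 ± 25.1 CPM (log2 change 0.61 ± 0.09, adjusted p = 0.000117, edgeR), and the signal peptide peptidase HM13 rose by 0.36 ± 0.06. The chaperones of the loading complex had log2 changes of 0.13 ± 0.07 for CALR, -0.14 ± 0.07 for CANX and 0.15 ± 0.08 for PDIA3, none of which passed, and with the GC and length offsets PDIA3 did pass, at 0.30 (adjusted p = 0.00233). The folding list reached 5 calls without CB1 replicate 1, 4 without CB1 replicate 3, 4 with library totals as scaling and 6 with the offsets. Of these 6, BCAP31, HM13, PDIA3, UGGT1 (0.41, adjusted p = 3.86e-05) and SAR1B (0.41, adjusted p = 0.0184) were higher. TAPBPL was lower with the offsets, at -0.44 (adjusted p = 0.044).

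Among 9 measured genes that remove class I from the surface or the endoplasmic reticulum, 3 were higher, 2 were lower and 4 were not called. The list median was 0.01 on the log2 scale. The autophagy receptor NBR1 fell by 0.60 ± 0.07 on the log2 scale and SEL1L, an adaptor of protein degradation, fell by 0.65 ± 0.09. IRGQ, an autophagy factor, rose by 0.30 ± 0.08, and TMEM127 and the ubiquitin ligase WWP2 rose by 0.20 ± 0.08 and 0.24 ± 0.09. The 5 calls fell to 3 without any 1 of the Vector replicates and without CB1 replicate 2. With the GC and length offsets WWP2 at 0.11 (adjusted p = 0.178) and TMEM127 at 0.09 (adjusted p = 0.234) did not pass, while NBR1, SEL1L and IRGQ did.

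Of 29 transcription regulators of class I genes, 26 were tested, 5 were higher, 11 were lower and 10 were not called. Their median change was -0.11 on the log2 scale. STAT2, which carries signals of type I interferon, had 120.5 ± 3.21 CPM in Vector and 70.1 ± 2.09 CPM in CB1 and fell, at -0.78 ± 0.07 on the log2 scale (adjusted p = 4.01e-06, edgeR). IRF1, a factor that binds interferon response sites, rose from 19.2 ± 1.56 to 31.7 ± 1.86 CPM, by 0.72 ± 0.09 on the log2 scale. NFYB, a subunit of the factor that binds CCAAT, fell by 0.67 ± 0.08 and CREB1, which binds TGACG, fell by 0.64 ± 0.10, while USF2 rose by 0.49 ± 0.08. With the offsets these 5 genes passed in the same directions, at -0.81 for STAT2, 0.67 for IRF1, -0.29 for NFYB, -0.19 for CREB1 and 0.26 for USF2.

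Genes that interferon induces beside class I moved in both directions. Of 18 such genes 13 were tested, 5 were higher, 6 were lower and 2 were not called. Here the median was -0.09 on the log2 scale. ISG15, a ubiquitin-like protein, rose from 55.4 ± 3.49 to 124.9 ± 19.7 CPM, a log2 change of 1.17 ± 0.11 (adjusted p = 5.09e-06, edgeR), and OAS3, a sensor of double-stranded RNA, rose by 0.88 ± 0.12. GBP2, a guanylate-binding protein, had 45.0 ± 1.41 CPM in Vector and 23.1 ± 1.21 CPM in CB1 and fell, at -0.96 ± 0.08 on the log2 scale (adjusted p = 3.09e-06, edgeR). IFITM1, a membrane protein that restricts virus entry, fell by 0.91 ± 0.12 and PARP9 fell by 0.81 ± 0.12.

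Class I-like molecules outside the members were mostly too low to test. Of 11 listed, 4 were tested, of which 2 were lower and none was higher. Their median was -0.22 on the log2 scale. FCGRT, the heavy chain of the neonatal Fc receptor, fell from 31.1 ± 2.79 to 23.9 ± 1.16 CPM (log2 change -0.38 ± 0.09, adjusted p = 0.00425, edgeR). MR1, which presents vitamin metabolites, fell from 12.5 ± 0.840 to 9.76 ± 0.898 CPM (log2 change -0.35 ± 0.12, adjusted p = 0.0266, edgeR). Both FCGRT and MR1 proteins bind B2M. Without Vector replicate 1, Vector replicate 3 or CB1 replicate 3, only 1 of the 2 calls was made. With the offsets FCGRT was at -0.70 (adjusted p = 3.49e-05) and MR1 at -0.16 (adjusted p = 0.243).

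Of 4 pseudogenes of the class I family, 3 were tested. HLA-H had 87, 82 and 113 counts in Vector and 63, 38 and 68 counts in CB1, without overlap, and was lower in CB1 at -0.74 ± 0.23 on the log2 scale (SE; adjusted p = 0.0182, edgeR). HLA-L, with 410 counts summed in Vector and 281 in CB1, was lower at -0.55 ± 0.19 (adjusted p = 0.031), although its groups overlapped. HLA-K, with 321 and 259 counts, did not pass at -0.31 ± 0.21 (adjusted p = 0.242) but did with the GC and length offsets, at -0.72 (adjusted p = 0.00747). HLA-J had 23 and 15 counts and was too low to test. Since these are near copies of class I genes, the values of both are uncertain.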

How the data were processed

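The 6 libraries of MDA-MB-231 (3 Vector, 3 CB1) were grouped by their titles. The study's methods describe oligo(dT) selection, NEBNext Ultra libraries and counting of uniquely mapped reads in exons, and alignment with HISAT2 2.0.5 and counting with featureCounts 1.5.0-p3 are named in the submitters' processing notes. Counts were deposited as raw whole numbers for each gene. For FPKM the authors divided the counts by gene length and by library size. Coordinates equal GENCODE 29 on GRCh38.

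The 15289 genes that averaged 0.5 FPKM or more were tested with edgeR 4.0.16 (R 4.3.3) on counts, with TMM scaling, two-sided quasi-likelihood tests, Benjamini-Hochberg adjustment over all of them and a threshold of 0.05. CPM values use the scaled library sizes, and the common coefficient of biological variation came to 8.51%. The study's methods name Cufflinks, which needs reads, and a fold limit of 2, which was tried as an alternative. Others were DESeq2 1.42.0, limma 3.58.1 (voom, and log2(FPKM + 1) and log2(FPKM + 0.1)), other scalings and minimums, a replicate block, leaving out each library, and, added after the data were seen, offsets for GC content with and without length. Steps were tested on simulated data, where 80 of 100 genes changed 2-fold and 94 of 100 changed 4-fold were recovered. The same run made 8 false calls. Changes as small as those of the 8 tested members were not simulated.

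The members and gene lists were chosen with earlier results of these data known. Named genes were the members, CNR1, up to 5 passing genes per list by smallest p, overlapping genes with counts, and the 5 genes most like HLA-B and NLRC5 across libraries. Marker genes, CALR, CANX, PDIA3, UGGT1, SAR1B, TAPBPL, ERAP1, ERAP2, NRDC, MICA and pseudogenes were named after their values were seen.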

Additional observations from a re-analysis of the deposited data

How the results depend on the processing

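The counts of members called, 4 higher and 2 lower, were the same under RLE size factors, library totals, a minimum of 1 FPKM, both limma tests on FPKM, limma-voom, DESeq2 and each left-out library. With no minimum HLA-F joined and 5 members were higher. With GC and length offsets 1 member was called higher, with GC offsets alone 2, and with a fold limit of 2 added none was called in either direction. That limit left 926 of all genes, 1 gene of peptide generation, 1 interferon-stimulated gene, 1 ligand of NK and T cell receptors and 3 MHC neighbours, and 0 class I-like molecules, folding, surface turnover and regulator genes. The offsets left 1 class I-like molecule, 5 genes of peptide generation and 6 of folding, and GC offsets alone 1, 7 and 5. Class I-like calls were 1 under both limma tests on FPKM and DESeq2. Folding calls were 4 with library totals and 4 with no minimum, and surface turnover calls were 3 with no minimum and 3 under both limma tests on FPKM. The cause was not tested where a count moved.

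Leaving out 1 library at a time gave 6151 to 8647 genes in all, 1 to 2 class I-like molecules, 8 to 16 genes of peptide generation, 2 to 5 of folding, 3 to 5 of surface turnover, 12 to 19 regulators, 9 to 11 interferon-stimulated genes, 3 to 5 ligands and 32 to 47 MHC neighbours. Log2 changes then ran from 0.34 to 0.58 for HLA-B, 0.55 to 0.81 for HLA-C, 0.29 to 0.38 for HLA-E, 0.26 to 0.34 for TAPBP, -0.45 to -0.29 for B2M, -0.42 to -0.30 for NLRC5 and -0.13 to 0.08 for TAP1, and the log2 ratio of TAP1 to TAP2 from -0.26 to 0.070, above 0 only without CB1 replicate 3.

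The replicate numbers were not used to pair the samples in the main fit. Same-numbered libraries deviated with r of -0.274, -0.183 and -0.0697 over 10028 genes, and no library correlated best with its own number. Deviations from group means of 3 libraries are tied to each other, so these values cannot show whether the samples were paired. With a replicate block 7142 genes were called against 7607, and 3 genes of surface turnover against 5, and members kept 4 calls higher and 2 lower. Precision is limited by 3 libraries per group and, for HLA-F, by 36 Vector counts. The fold limit and offsets apart, no setting ended a member's call.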

Other observations

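Ligands that natural killer and T cells read beside class I were called in 4 of 12 cases, where 49.8% of all genes were. Of 14 listed, 12 were tested, 2 were higher, 2 were lower and 8 were not called. The list median was -0.08 on the log2 scale. CD47, which signals to phagocytes, fell from 139.0 ± 2.16 to 105.8 ± 6.68 CPM (SD, n = 3; log2 change -0.39 ± 0.07, adjusted p = 0.000678, edgeR), and CD274, the ligand of PD-1, fell from 28.8 ± 0.697 to 21.5 ± 3.77 CPM (-0.42 ± 0.12, adjusted p = 0.00868). RAET1E, a ligand of the NKG2D receptor, rose from 1.91 ± 0.749 to 3.91 ± 0.950 CPM (1.03 ± 0.28, adjusted p = 0.00928), and NCR3LG1, a ligand of NKp30, rose from 4.30 ± 0.531 to 7.30 ± 2.10 CPM (0.77 ± 0.21, adjusted p = 0.00929). With GC and length offsets CD47 (-0.01) and CD274 (-0.19) did not pass, while RAET1E (0.97, adjusted p = 0.0114) and NCR3LG1 (0.84, adjusted p = 0.0038) did, and MICA (-0.32, adjusted p = 0.00182) was among 6 called.

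Among 9699 other protein-coding genes, the 5 whose centred log2 CPM over the 6 libraries lay closest to HLA-B were NAA38, SLC25A26, MRPL20, TMEM14B and IER5L, with root mean square differences of 0.045 to 0.052. Those closest to NLRC5 were FKBP15, GPT2, AP3M2, IRF2BPL and SLC37A2, at 0.027 to 0.036. The points share libraries and depth.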
